A study of Mus musculus with 6 samples.

Results

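The response of NIH3T3 cells to interferon-beta (IFN-β) was read from 2 of the 6 arrays of the series, the array of unstimulated NIH3T3 and that of NIH3T3 after 4 h of IFN-β. NIH3T3 is an established line of mouse embryonic fibroblasts. The other 4 arrays held the same pair of conditions for L929, a mouse fibroblast line, and for RAW264.7, which the labels call a macrophage line. The series asked which genes IFN-β regulates, and the 3-fold threshold of its design text is kept here. Genes were measured by probe sets that the array annotation gives to 1 gene, and where a gene had several, by the probe set whose mean over the 6 arrays was highest, which gave 19938 genes of 35557 probe sets. Levels are log2 values, so that a change of 1 is 2-fold and a change of 1.58 is 3-fold. Neither the dose nor the source of the IFN-β is given in the sources used here. No condition had a replicate, so a difference within NIH3T3 has no error and no test, and "higher" and "lower" below compare 1 array with 1 array. Precision is limited by this number of arrays. A level also depends on the probes of its probe set, so levels are compared between arrays for the same gene. Where a level is set against the range of its whole array, that is a rough description only.

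IFN-β is a type I interferon. It binds the receptor chains encoded by Ifnar1 and Ifnar2, on which the kinases Jak1 and Tyk2 phosphorylate transcription factors such as STAT2. STAT2 acts with IRF9 in a complex that binds a DNA element called the ISRE in the promoters of interferon-stimulated genes. A second element, the GAS, is better known from the response to interferon-gamma. Many products of these genes act against viruses inside the cell, some help to present antigen to T cells, and others, such as the one of Usp18, end the signal. Fibroblasts are a classical cell type for the study of this response.

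The unstimulated NIH3T3 array carried the markers of a fibroblast. The median level of 22 fibroblast and mesenchymal markers was 10.30, against 8.45 for the same genes in unstimulated L929 and 4.64 in unstimulated RAW264.7. In NIH3T3 19 of the 22 lay above the median of all genes, and the lowest was at 2.38. Among the highest, Vim, the intermediate filament vimentin, had a level of 12.55. Fn1, the matrix protein fibronectin, had 12.40, and Lox, an enzyme that crosslinks collagen, 11.36. In unstimulated RAW264.7 Fn1 was at 3.78 and Lox at 3.04, but Vim was at 10.5, so Vim does not set the lines apart. For 21 macrophage markers the median was 3.79 in NIH3T3 and 9.67 in RAW264.7. In NIH3T3 it was 4.10 for 15 epithelial, 3.63 for 14 lymphocyte and 4.48 for 16 endothelial and muscle markers. Defining genes of these types are given for the unstimulated and then the stimulated NIH3T3 array. The leukocyte gene Ptprc was at 3.62 and 4.09, against 9.68 in unstimulated RAW264.7, the epithelial adhesion gene Epcam at 3.34 and 3.59, and the endothelial gene Pecam1 at 3.66 and 3.75.

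The stimulated NIH3T3 array did not share the scale of the others, and whether all 6 arrays were normalized together is not stated in the sources used here. The median over all its probe sets was 5.04, against 4.72 to 4.82 on the other 5 arrays, and its interquartile range of 3.46 was the narrowest. The median change over all genes was therefore 0.17 in NIH3T3, and it depended on the level. It was 0.25 in the lowest decile of the genes, between 0.30 and 0.31 in the next 4 deciles, and -0.12 in the highest decile. After quantile normalization of the 6 arrays the median change of each decile lay between -0.04 and 0.03. In the third decile the quartiles of the change were 0.10 and 0.52, and in the highest -0.28 and 0.06. Small changes are therefore read against these values. The main values below are as deposited, and quantile-normalized values are given where they move a call.

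**Figure D1:**
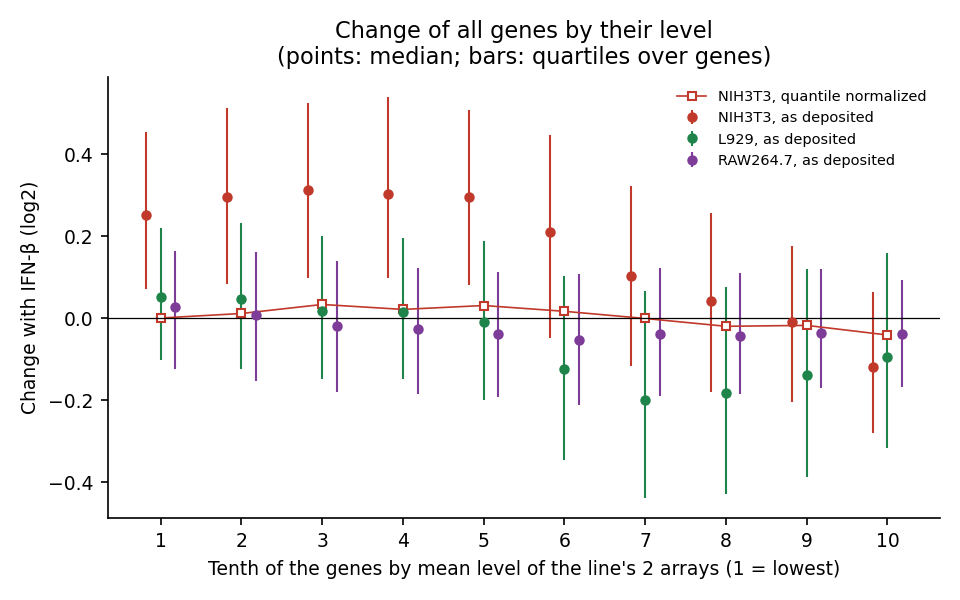
Median change with IFN-β (log2, y axis) of all 19938 genes split into deciles by their mean level (x axis), with quartiles over genes as bars, for each line as deposited and for NIH3T3 after quantile normalization (open squares). The NIH3T3 medians run from 0.31 in the third decile to -0.12 in the highest, and lie between -0.04 and 0.03 after normalization.

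After IFN-β 95 of the 19938 genes (0.476%) passed 3-fold upward in NIH3T3 and 8 (0.0401%) passed it downward. The largest changes were those of Ifit3b, Ifit1, Usp18, Ifit3 and Mx2, all antiviral genes or regulators of the response. Of the 95 genes, 33 were higher by 3- to 5-fold, 20 by 5- to 10-fold, 31 by 10- to 30-fold and 11 by 30-fold or more. On the unstimulated array their levels ran from 2.31 to 8.12 with a median of 4.72, and 28 lay below the lower quartile of all genes. On the stimulated array they ran from 4.25 to 11.59 with a median of 8.17, and 67 lay above the upper quartile. The gene just inside the threshold was Pml, with a change of 1.59, and the gene just outside it was Myd88, a Toll-like receptor adaptor, with 1.58. Quantile normalization left 87 higher genes, 86 of them among the 95, and the same 8 lower genes. The 9 that no longer passed were Abo, Ccl8, Gbp4, Ifih1, Ifit1bl2, Olfr544, Olfr707, Tmem140 and Trex1, which had unstimulated levels between 2.55 and 4.71. At 2-fold the scale decided the balance. As deposited 345 genes (1.73%) were higher and 57 (0.286%) lower, after quantile normalization 178 and 117, and with each array centred on its median 147 and 207.

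**Figure D2:**
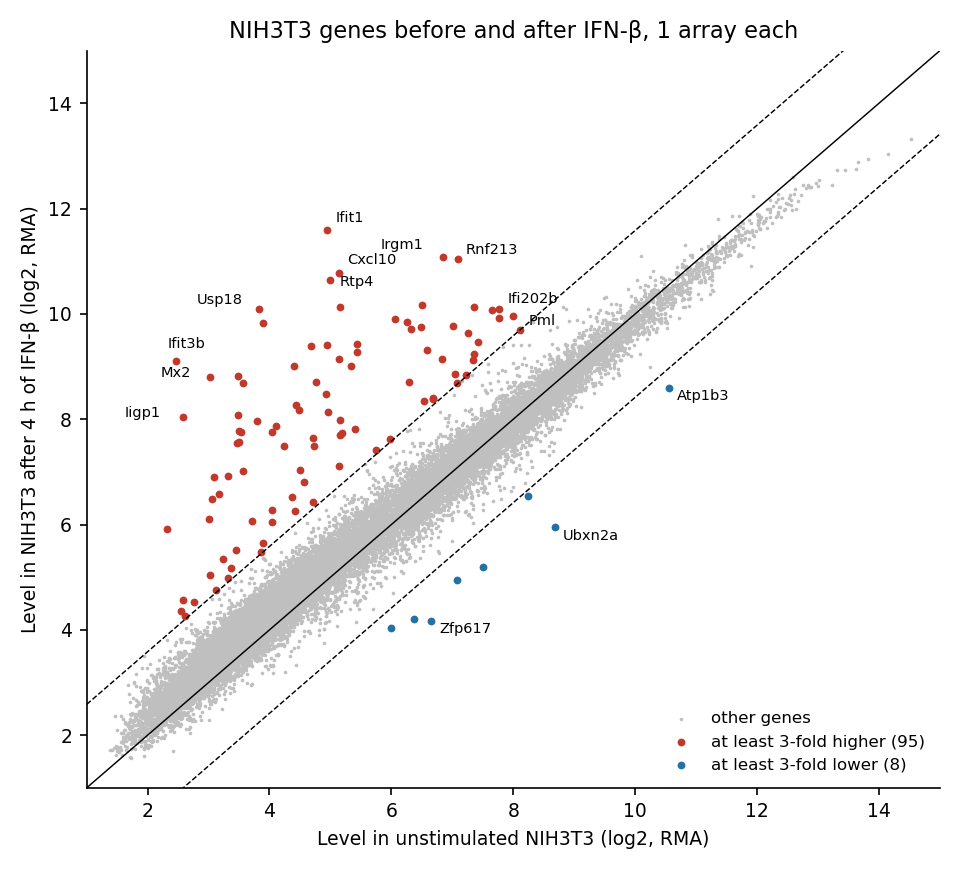
Level of each gene in unstimulated NIH3T3 (x axis) and after 4 h of IFN-β (y axis), both log2 from RMA, 1 array each. The solid line marks no change and the dashed lines 3-fold; the 95 genes at least 3-fold higher (red) leave the diagonal from low and middle unstimulated levels, up to Ifit1 at 11.59, and the 8 lower genes (blue) include Ubxn2a at 5.95.

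The promoters of the responding genes were searched for the DNA elements of the pathway. The windows were those of RefSeq, build GRCm38.p6, from 250 bases before to 50 bases after each gene's start. The ISRE core was written GAAANNGAAA, which reads TTTCNNTTTC on the other strand, and both strands were searched. A window was found for 75 of the 95 genes, and 35 of these (46.7%) held the core. Of all 15563 measured genes with a window, 605 (3.89%) held it, and so did 3.44% of all 32851 RefSeq windows. A match describes these letters only and is not a measured binding site. The stretches printed below come only from windows that hold the core. They show where it lies in genes with large changes or with a contrast between lines. They are written 5′ to 3′ in the direction of the gene, with the core in capitals.

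The IFIT genes encode proteins that bind viral RNA or block its translation, and all 5 measured members of the 7 listed were at least 3-fold higher, with a median change of 5.94. Ifit1 went from 4.95 to 11.59 in NIH3T3, from 3.55 to 11.77 in L929 and from 5.98 to 10.10 in RAW264.7. It thus reached nearly the same level in NIH3T3 as in L929, from a higher start. Ifit3 went from 3.89 to 9.83 in NIH3T3, and Ifit3b, a close copy of it, from 2.47 to 9.11. Signal of such copies can cross between probe sets, so their separate values are uncertain. Ifit2 went only from 7.33 to 9.12, a change of 1.79 against 3.40 in L929 and 4.00 in RAW264.7. Its unstimulated level was the highest of the 3 lines, where L929 had 6.51 and RAW264.7 6.48. The windows of Ifit2 hold 0 ISRE cores. Ifit1bl2 was higher by 1.76, and by 1.46 after quantile normalization, which is under 3-fold. The stretches of Ifit1 (chr19:34640773-34640825, plus strand, positions -116 to -64 from the start) and of Ifit3 (chr19:34583361-34583428, plus strand, -168 to -101) each hold 2 ISRE cores, and the same 68 bases as in Ifit3 stand before Ifit3b (chr19:34607757-34607824, plus strand).
Ifit1: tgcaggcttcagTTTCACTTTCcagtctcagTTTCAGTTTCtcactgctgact
Ifit3: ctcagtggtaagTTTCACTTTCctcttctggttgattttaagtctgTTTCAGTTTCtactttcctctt

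Of 32 measured antiviral effectors outside the IFIT family, 15 were at least 3-fold higher, and the list had a median change of 1.36. Mx2, a dynamin-like GTPase, went from 3.03 to 8.80, and its relative Mx1 from 3.50 to 7.78. Oasl2, of the oligoadenylate synthetase family that activates RNase L or acts on RNA sensing, went from 5.15 to 10.12, a change of 4.97 against 5.47 in L929 and 4.26 in RAW264.7. Rtp4, a receptor transporter protein with antiviral activity, went from 4.99 to 10.64. Its change of 5.65 stood between 7.08 in L929 and 1.33 in RAW264.7, where Rtp4 started at 9.71 and ended at 11.03. After IFN-β Rtp4 thus stood at similar levels in the 3 lines, while its changes differed. Bst2, the protein tetherin that holds budding virus at the membrane, went from 6.06 to 9.90, and Samd9l from 5.44 to 9.43.

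The oligoadenylate synthetase genes did not move together in NIH3T3. Oas1b was higher by 3.43 and Oas2 by 2.25, but Oas1a went from 5.47 to 5.83 and Oas3 from 4.16 to 4.45. In L929 Oas1a was higher by 3.83 and Oas3 by 3.12, and in RAW264.7 by 1.96 and 1.77. Oasl1, a relative of Oasl2, had a change of 0.61 against 3.23 and 1.91 in the same order. Ifi44l went from 4.22 to 3.92 in NIH3T3, while it was higher by 3.94 in L929 and by 2.77 in RAW264.7. These antiviral genes are all textbook members of the response, and in NIH3T3 the 4 named last changed by less than 1 on the log2 scale on every scale tried.

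Rsad2, the antiviral enzyme viperin, and Cmpk2, a mitochondrial nucleotide kinase, are adjacent genes. In NIH3T3 Rsad2 went from 4.43 to 8.27 and Cmpk2 from 3.48 to 8.09, changes of 3.83 and 4.60. In L929 the pair split, with a change of 7.76 for Rsad2 (3.96 to 11.73) and of 0.45 for Cmpk2 (3.97 to 4.42). In RAW264.7 both were higher, by 4.71 and 4.20. The window of Cmpk2 holds 0 ISRE cores. The stretch of Rsad2 (chr12:26456551-26456584, minus strand, -132 to -99) holds 1 core.
Rsad2: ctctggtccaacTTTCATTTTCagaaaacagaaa

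The large GTPases that gather on membranes around bacteria, parasites and viral replication sites responded in NIH3T3. All 4 measured immunity-related GTPases of 11 listed were at least 3-fold higher, with a median change of 4.23. Iigp1 went from 2.58 to 8.04 in NIH3T3, from 2.35 to 10.83 in L929 and from 3.22 to 7.87 in RAW264.7. Irgm1, which regulates the other members, went from 6.85 to 11.07 and so ended close to its levels of 11.16 in L929 and 11.29 in RAW264.7. Of 8 measured guanylate-binding proteins, 5 were at least 3-fold higher, with a median change of 1.84, or 1.53 after quantile normalization. Gbp3 went from 3.57 to 8.69 and Gbp7 from 4.40 to 9.02. Gbp2b went from 3.71 to 6.06, a change of 2.36 against 6.06 in L929 and 5.13 in RAW264.7. Gbp5 went from 3.25 to 4.69, a change of 1.44 against 4.45 and 3.55. Gbp4, with 1.66, passed only on the deposited scale, since its quantile-normalized change was 1.34. Gbp genes are a multigene family, so their probe sets may share signal. In the stretches of Gbp3 (chr3:142559987-142560026, plus strand, -57 to -18) and Irgm1 (chr11:48871423-48871462, minus strand, -42 to -3) 2 cores overlap.
Gbp3: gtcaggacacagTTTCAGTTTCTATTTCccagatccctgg
Irgm1: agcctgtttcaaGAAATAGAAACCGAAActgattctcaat

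The HIN-200 proteins, which bind DNA in the nucleus and cytosol, were split. Of 9 measured members 4 were at least 3-fold higher, or 3 with median centring, and the list median was 0.56, or 0.28 after quantile normalization. Ifi205 went from 3.49 to 8.83, Ifi202b from 7.76 to 10.09 and Ifi207 from 4.57 to 6.81, while Ifi203 was higher by 1.72. Ifi209 went only from 2.36 to 2.92. In L929 Ifi209 was higher by 4.81 and in RAW264.7 by 4.56.

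The Schlafen genes, of which several restrain proliferation or viral translation, showed a similar split. Of 8 measured members 2 were at least 3-fold higher in NIH3T3, against 6 in L929 and 8 in RAW264.7, and the median change was 0.53, or 0.24 after quantile normalization. Slfn8 went from 3.80 to 7.96 in NIH3T3, a change of 4.16 against 3.09 in L929 and 2.19 in RAW264.7. Slfn9 went from 7.77 to 9.92. Slfn5 went from 3.46 to 4.00, a change of 0.54 against 5.21 and 2.94. Slfn2 changed by 0.51 and Slfn4 by 0.37, against 4.19 and 3.51 in L929. Slfn8 and Slfn5 both hold an ISRE core in their windows, Slfn8 in chr11:83020837-83020870 (minus strand, -60 to -27) and Slfn5 in chr11:82951935-82951968 (plus strand, -167 to -134).
Slfn8: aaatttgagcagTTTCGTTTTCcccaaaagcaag
Slfn5: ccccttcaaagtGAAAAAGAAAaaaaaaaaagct

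Among sensors of foreign nucleic acid, 5 of 16 were at least 3-fold higher, with a list median of 0.84. Ddx58, the cytosolic RNA sensor RIG-I, went from 6.51 to 10.17 and its regulator Dhx58 from 4.23 to 7.50. Zbp1, which senses nucleic acid in the Z form, went from 4.72 to 7.64. Tlr3, the endosomal receptor for double-stranded RNA, was higher by 2.53. Ifih1, the RNA sensor MDA5, went from 3.86 to 5.48, and its change of 1.62 became 1.34 after quantile normalization. In L929 Ifih1 went from 4.01 to 9.69 and in RAW264.7 from 7.06 to 10.03. The adaptor gene Mavs had a change of 0.14, and the receptors Tlr4 and Tlr9 of -0.15 and 0.34.

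Of the components that carry the signal, only the transcription factors were at least 3-fold higher in NIH3T3. Among 13 receptor, Jak and Stat genes this was Stat2 alone, which went from 6.32 to 9.71, and the list median was 0.19. Ifnar1 went from 7.17 to 6.74, Ifnar2 from 7.91 to 7.84, Jak1 from 10.29 to 10.37 and Tyk2 from 5.55 to 5.96. Of 10 interferon regulatory factors and related genes 3 were higher, Irf7 (4.77 to 8.71), Irf9 (4.74 to 7.49) and Irf1 (7.05 to 8.85). Irf9 changed by 2.75 in NIH3T3, by 3.23 in L929 and by 0.68 in RAW264.7, where it started at 7.58. Irf1 had a second probe set with a change of 0.48. Irf5, with -0.45, and Irf8, with 0.27, were not higher by 3-fold. The stretch of Stat2 (chr10:128270264-128270297, plus strand, -234 to -201) holds 1 core.
Stat2: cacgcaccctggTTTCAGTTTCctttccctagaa

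Of 11 negative regulators of the response 2 were at least 3-fold higher, with a median of 0.45. Usp18, which removes ISG15 from proteins and blocks the receptor chain IFNAR2, went from 3.83 to 10.10 in NIH3T3, from 4.03 to 11.45 in L929 and from 8.37 to 11.36 in RAW264.7. Trex1, a nuclease that degrades DNA in the cytosol, was higher by 1.72, or by 1.56 after quantile normalization. Socs1, a suppressor of cytokine signalling, went from 6.37 to 7.49, a change of 1.12, and Socs3 changed by 0.47.

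In the ISG15 and ubiquitin system 5 of 11 genes were at least 3-fold higher, with a median of 1.21. Herc6, the mouse ligase for ISG15, went from 4.11 to 7.88, Ube2l6, its conjugating enzyme, from 6.58 to 9.31, and Rnf213, a large ubiquitin ligase, from 7.09 to 11.05. A second probe set of Rnf213 gave a change of 4.03 beside 3.96. Dtx3l and Parp9, whose proteins form a complex, were higher by 3.69 and 3.99. Of 13 PARP genes, which encode ADP-ribosyltransferases, 5 were higher, with a median of 0.85. Parp14 went from 4.94 to 9.41 and Parp12 from 4.96 to 8.13, while the DNA repair gene Parp1 went from 7.87 to 7.89. Parp12 changed by 3.17 in NIH3T3 and by 2.33 and 1.83 in L929 and RAW264.7.

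Of 14 TRIM and PML nuclear body genes 8 were at least 3-fold higher and 12 at least 2-fold, with a median of 1.78. Trim30a went from 4.69 to 9.39, Trim21, a cytosolic antibody receptor, from 5.34 to 9.02, and Trim25, a ligase of the RIG-I pathway, from 7.65 to 10.08. The nuclear body genes Sp100, Sp140 and Daxx were higher by 4.07, 1.97 and 2.40. Pml, which builds these bodies, went from 8.12 to 9.70. Sp100 lies in a region of repeated copies, so its probe sets may share signal.

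Genes for antigen presentation by MHC class I were higher in part. Of 15 genes 4 were at least 3-fold higher and 9 at least 2-fold, with a median of 1.06. Tap1, a subunit of the peptide transporter, went from 4.93 to 8.48, a change of 3.55 against 2.75 in L929 and 2.52 in RAW264.7. Tapbp, which links the transporter to class I molecules, was higher by 1.96 and reached 9.95, and H2-T24 and H2-Q4, class I heavy chains, were higher by 2.15 and 1.84. B2m, the shared light chain, was at 11.65 and 11.62 as deposited. It lay in the highest decile of all genes, whose median change was -0.12. Of 9 proteasome genes 2 were at least 3-fold higher, the immunoproteasome subunits Psmb10 (7.36 to 10.14) and Psmb9 (5.40 to 7.81). Psmb8, the third such subunit, went from 5.11 to 5.46, a change of 0.34 against 2.51 in L929 and 1.03 in RAW264.7. Of 9 MHC class II genes 0 were at least 3-fold higher, where 0.476% of all genes were. The largest change was 0.87 for their regulator Ciita (3.93 to 4.80).

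Among genes for secreted proteins Cxcl10 had the largest change. Of 19 chemokine genes 2 were at least 3-fold higher and 8 at least 2-fold, with a median of 0.56, or 0.29 after quantile normalization. Cxcl10, which attracts T cells, went from 5.14 to 10.78 in NIH3T3, from 4.20 to 12.23 in L929 and from 6.97 to 11.89 in RAW264.7. Its relatives on the same receptor differed in NIH3T3, where Cxcl9 went from 4.87 to 5.70 and Cxcl11 from 4.00 to 5.25. Monocyte chemokines were higher by smaller amounts, Ccl2 by 1.32 (8.81 to 10.13) and Ccl7 by 1.53 (7.83 to 9.37). Ccl8 went from 3.36 to 5.17, while in L929 it went from 3.20 to 3.51 and in RAW264.7 from 2.44 to 2.52. After quantile normalization its change in NIH3T3 was under 3-fold. The stretch of Cxcl10 (chr5:92349081-92349114, minus strand, -225 to -192) holds 1 core.
Cxcl10: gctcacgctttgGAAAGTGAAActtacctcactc

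None of 27 cytokine and TNF ligand genes was at least 3-fold higher, where 0.476% of all genes were. At least 2-fold higher were 3 of the 27, where 1.73% of all genes were. The list median was 0.42, or 0.14 after quantile normalization. Il15, which sustains natural killer cells, went from 6.27 to 7.78, a change of 1.51. Tnfsf10, the death ligand TRAIL, went from 3.17 to 4.58, a change of 1.41 against 5.48 in L929 and 4.41 in RAW264.7. Il6 went from 2.63 to 3.76, a change of 1.13 against 3.96 and 0.55. After quantile normalization the change of Il6 in NIH3T3 was 0.83, which is under 2-fold. Those of Il15 and Tnfsf10 were 1.51 and 1.10. The transcript of IFN-β itself, Ifnb1, was at 2.75 and 2.60. Of 21 cell death genes 3 were at least 3-fold higher, Xaf1 (4.04 to 7.75), Zbp1 and Daxx, with a list median of 0.32. Of 13 checkpoint and costimulatory genes 2 were higher, Cd274, the ligand PD-L1 (4.50 to 7.04), and Lgals9, galectin-9 (7.26 to 9.64). Cd40, a costimulatory receptor, was at 5.11 and 5.12 in NIH3T3, while it was higher by 2.25 in L929 and by 2.63 in RAW264.7.

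Over all genes 0.476% were at least 3-fold higher, so most lists of the sizes below would hold none. The lists for matrix, growth and metabolism had no member at least 3-fold higher. This held for 22 fibroblast markers (median 0.04), 17 myofibroblast genes (0.03), 16 matrix proteases and inhibitors (0.01), 21 growth factors and receptors (0.10), 25 DNA replication genes (-0.02), 23 mitosis genes (-0.11) and 18 cholesterol genes (-0.07). The sign of 4 of these medians turned after quantile normalization, with -0.11 for the myofibroblast, -0.11 for the protease, -0.05 for the growth factor and 0.04 for the replication genes. No member passed 3-fold among 17 NF-kB genes (median 0.20) and 27 immediate early and stress genes (0.29, or 0.16 after quantile normalization). Klf2, a transcription factor, had the largest change of the latter, 0.85 (6.09 to 6.95), and Fos changed by 0.82 (4.55 to 5.37). Ribosomal protein genes (median -0.36) and housekeeping genes (-0.45) were lower, as was the highest decile of all genes (-0.12). After quantile normalization these medians were -0.04 and -0.30. The housekeeping gene with the largest decrease, Eef1a1, went from 14.16 to 13.03. Fibroblast markers went both ways within 2-fold, from 0.97 for the collagen gene Col5a1 (6.91 to 7.88) to -0.64 for Lum, the matrix protein lumican (4.07 to 3.43), with -0.47 for Lox and -0.30 for Vim. After quantile normalization Lox had -0.33, and the sign of Vim turned, to 0.09.

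**Figure D3:**
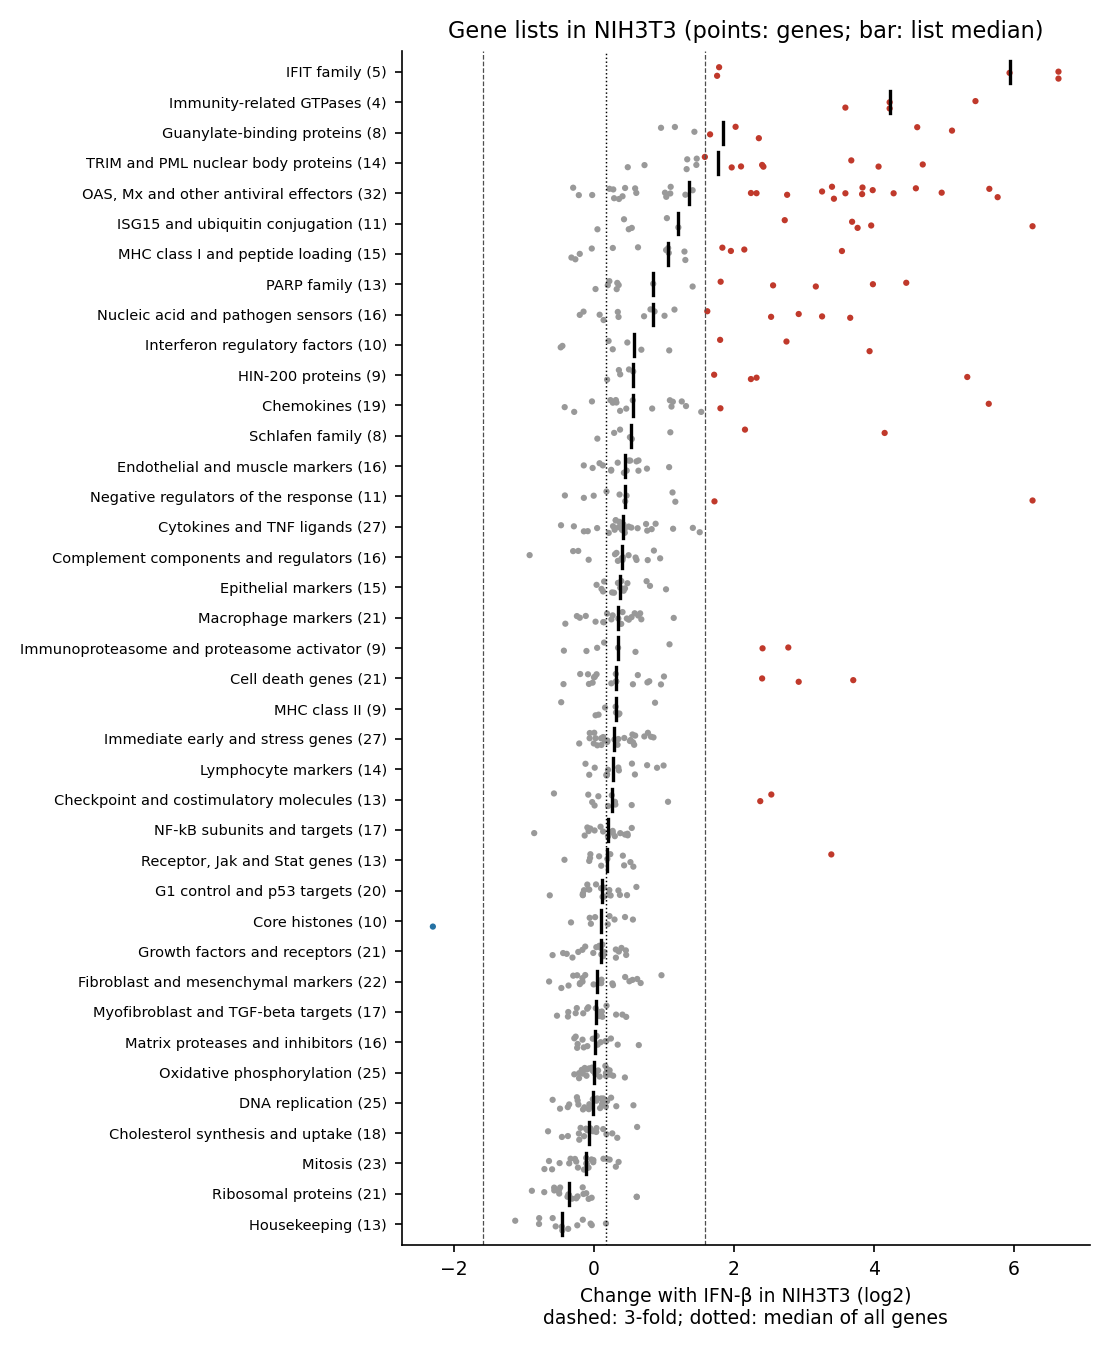
Change with IFN-β in NIH3T3 (log2, x axis) of each measured gene of the 39 lists (y axis, number of genes in brackets); points are genes, red at least 3-fold higher and blue at least 3-fold lower, and bars are list medians. The IFIT family stands at a median of 5.94 and the immunity-related GTPases at 4.23, and 18 lists have a member at least 3-fold higher.

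Of the 95 genes 74 were on a list and 21 were on none. Among the latter, Phf11d (3.49 to 7.56) and Phf11a (3.01 to 6.11) encode PHD finger proteins, and Helz2 (5.43 to 9.29) encodes a helicase that acts as a nuclear receptor coactivator. Lgals3bp, a secreted galectin ligand, went from 5.16 to 7.98, and the lipocalin gene Apod from 3.44 to 5.52. The 95 genes were often neighbours in the genome. In the RefSeq order of the measured genes, 34 of the 95 (35.8%) lay directly beside another of them, while 143 of the 19758 other genes (0.724%) lay beside a member of the 95. They formed 13 runs. The longest was Ifit2, Ifit3, Ifit3b, Ifit1bl2 and Ifit1, and the next was Ifi207, Ifi203, Ifi202b and Ifi205. Runs of 3 were Gbp7, Gbp3 and Gbp2b, then Parp14, Dtx3l and Parp9, and A530040E14Rik, Sp140 and Sp100. Most runs hold related copies, whose probe sets may share signal, but Psmb9 and Tap1, Rsad2 and Cmpk2, and Dtx3l with its PARP neighbours are not copies of each other.

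The response of NIH3T3 was set beside that of the other lines over genes chosen without it. The 3-fold threshold for higher genes was passed by 178 (0.893%) in L929, by 123 (0.617%) in RAW264.7 and by 91 in both. Of these 91, 62 (68.1%) were at least 3-fold higher in NIH3T3, and these 62 were 65.3% of the 95 of NIH3T3. For NIH3T3 the median change of the 91 was 2.53, while L929 had 4.19 and RAW264.7 had 2.64. NIH3T3 had the smallest change of the 3 lines for 49 of the 91 and the largest for 8, in a set chosen for large changes in the other lines. Over all 19938 genes, as deposited, it had the smallest for 3892 and the largest for 11031. On that scale the median change of all genes was 0.17 for NIH3T3, against -0.05 (L929) and -0.03 (RAW264.7). Quantile normalization brought the NIH3T3 median to 0.001. The counts over all genes thus carry the shifted scale of the stimulated NIH3T3 array. They do not show a larger response of this line and are no baseline for the 91. In the 95 genes, chosen for large changes in NIH3T3, RAW264.7 had the smallest change for 65, and its median was 2.15, while NIH3T3 had 2.82 and L929 had 3.54. After quantile normalization 60 of the 91 were at least 3-fold higher in NIH3T3, with a median of 2.49. Of the 178 genes of L929, 79 (44.4%) were at least 3-fold higher in NIH3T3, which is 83.2% of the 95, and of the 123 of RAW264.7, 68 (55.3%), which is 71.6% of the 95.

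The other 29 of the 91 genes had a median change of 0.89 in NIH3T3. They were picked as under 3-fold there and over it in both other lines, so the gap to the medians of 2.83 in L929 and 2.52 in RAW264.7 was set by the choice. In NIH3T3 14 of them were at least 2-fold higher, among them Il15 and Tnfsf10. The genes with the smallest changes were Ifi44l (-0.30), BC147527 (-0.24), Cd40 (0.01), Gm8995 (0.15), Oas3 (0.29), Il18 (0.31), Oas1a (0.36), Slfn4 (0.37), Slfn2 (0.51) and Ccrl2 (0.52). Il18, an inflammasome cytokine, went from 4.41 to 4.72, and Ccrl2, an atypical chemokine receptor, from 4.08 to 4.60. On the stimulated NIH3T3 array 17 of the 29 had a level below the median of all genes.

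**Figure D4:**
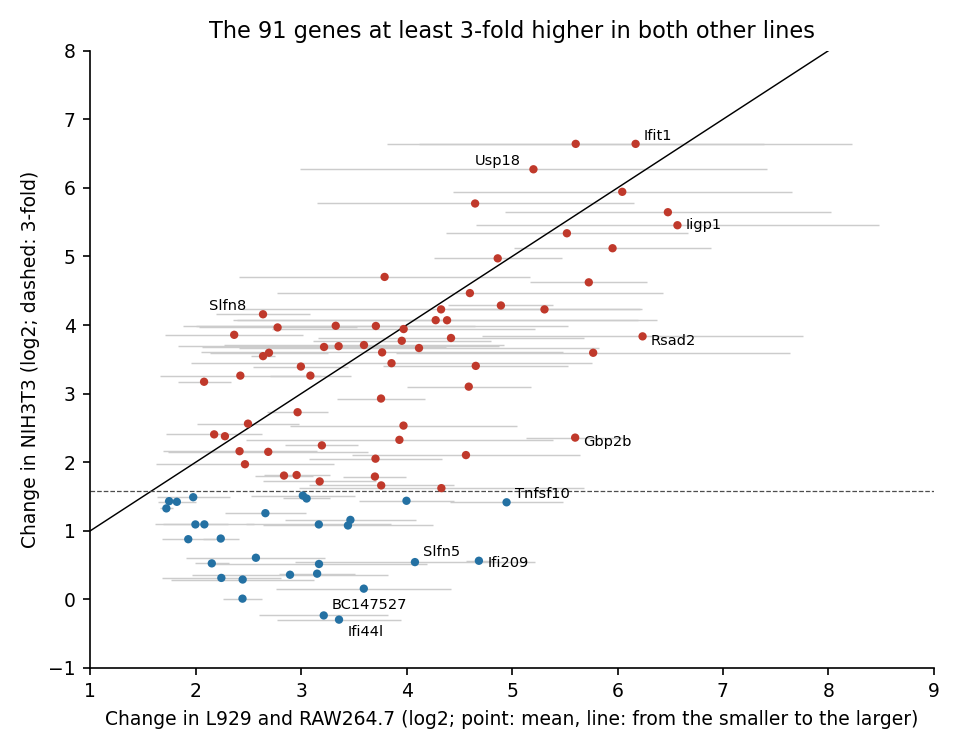
Change in NIH3T3 (log2, y axis) against the mean change in L929 and RAW264.7 (log2, x axis) for the 91 genes at least 3-fold higher in both of those lines; grey lines join the smaller and the larger of their changes, the solid line marks equal change and the dashed line 3-fold. The 62 red genes passed 3-fold in NIH3T3 and the 29 blue genes did not; Ifi44l lies at -0.30 and Ifi209 at 0.56.

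The difference between the NIH3T3 change and the mean change of L929 and RAW264.7 was tested for every gene with limma, with the cell line as a block. NIH3T3 gave 1 pair of arrays and the fit had 1 residual degree of freedom, so the spread came from L929 against RAW264.7 and from all genes pooled, and the test cannot separate the line from the variation of a single pair. At an adjusted p under 0.05, 1 gene (0.00502%) had a smaller change in NIH3T3 and 0 (0.0%) had a larger one. The gene was Ifi209, whose change in NIH3T3 was smaller by 4.12 ± 0.31 (SE; difference -4.12, limma adjusted p = 0.0166), below its change in both other lines. Both NIH3T3 levels of Ifi209, 2.36 and 2.92, lay near the bottom of the array, at percentiles 4.28 and 7.27 of all genes, and no measure of background was used here, so the size of its change in NIH3T3 is uncertain. Over the other settings its adjusted p ran from 0.000216 to 0.0332. At an unadjusted p under 0.05 limma gave 1619 larger and 358 smaller changes, where 498 are expected each way, and after quantile normalization 565 and 610. A smaller change was called for 15 genes when the array medians were subtracted. Beside Ifi209 these were Ifi44l, BC147527, Cd40, Gm8995, Slfn4, Tnfsf10, Gbp5 and Gbp2b and 6 of the genes lower in NIH3T3.

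Of the 95 genes 10 were under 3-fold in both other lines, and 5 of these were also within 1.5-fold there. Ifi27l2a, a small mitochondrial protein gene induced by interferon, went from 4.04 to 6.05 in NIH3T3, from 3.63 to 3.21 in L929 and from 6.92 to 7.15 in RAW264.7. Its level after IFN-β in NIH3T3 was still below the unstimulated level of RAW264.7. Agrn, the heparan sulfate proteoglycan agrin, went from 5.74 to 7.42 in NIH3T3, from 5.18 to 5.09 in L929 and from 4.64 to 5.18 in RAW264.7. Abo, a blood group glycosyltransferase gene, went from 2.55 to 4.37, and Olfr707, an olfactory receptor gene, from 2.61 to 4.25. Abo, Olfr707 and Ccl8 stayed below the array median after IFN-β and were under 3-fold after quantile normalization, where 5 of the 10 genes passed. With median centring 3 of the 10 passed and with loess 3, and Agrn was under 3-fold in both, at 1.40 with median centring. None of these differences from the other lines passed limma, where the lowest adjusted p of a larger change was 0.404, for Abo. Plac8, another of the 10, went from 2.57 to 4.57 in NIH3T3 and from 8.51 to 9.53 in L929, so that its level was far higher in L929 before and after.

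The 8 genes at least 3-fold lower were not members of the interferon lists. Ubxn2a, a UBX domain protein gene, went from 8.68 to 5.95, Zfp617, a zinc finger gene, from 6.65 to 4.17, and Macroh2a2, a histone variant gene, from 7.50 to 5.19. Atp1b3, a subunit of the sodium pump, went from 10.56 to 8.60. The changes of the others were -2.16 for Macrod2, -2.13 for the pseudogene Pisd-ps2, -1.94 for Glrx3 and -1.71 for Akirin1. In L929 and RAW264.7 all 8 changed by less than 1 on the log2 scale in either direction. Other probe sets of the same genes did not show the decrease. The second probe set of Ubxn2a went from 6.78 to 7.30 and that of Atp1b3 from 9.76 to 9.70, and the other 5 of Macrod2 changed by -0.86 to 0.97. Of these 7 other probe sets 0 were at least 3-fold lower. Of the 6 other probe sets of the higher genes 5 were at least 3-fold higher, but only 3 of the 95 genes had any. Most of the 6 belong to A530040E14Rik and have identical levels in pairs (changes of 1.79 and 1.99), so they are not all separate measurements. The other probe set of Irf1 changed by 0.48. The remaining 5 lower genes had 1 probe set each. Just outside the threshold lay Pcmtd1 at -1.41 and Mgmt, a DNA repair gene, at -1.33.

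The ISRE core was more frequent in promoters of genes with larger increases. It stood in 18 of 31 (58.1%) genes at least 10-fold higher and in 17 of 44 (38.6%) genes 3- to 10-fold higher. Of 1805 genes 1.5- to 3-fold higher 4.16% held it, and of 7 genes at least 3-fold lower 0. The remaining 13676 genes, within 1.5-fold or lower by less than 3-fold, held it in 3.62%. Among the 75 genes the median change was 3.39 with a core and 2.53 without, but among the 3- to 10-fold genes it was 1.89 with and 2.08 without. Some of the 75 genes had more than 1 window. Counted over every window they held 49 matches of the core, so a core that lies in several windows can count more than once. Of the 49, 33 (67.3%) lay within the 150 bases before the start and 8 after it. The windows span 250 bases before the start and 50 after it. Positions were not counted for the cores of other genes, so this share has no comparison. The GAS core was written TTCNNNGAA, which reads the same on both strands. It stood in 12 of the 75 genes, or 12.9% of those at least 10-fold and 18.2% of those 3- to 10-fold higher, and in 9.01% of all genes, and 7 genes held both motifs, which overlapped in 2. The 22 genes with a window among those at least 3-fold higher in both other lines but not in NIH3T3 held the ISRE core in 7 cases (31.8%), Slfn5 among them. Of the 8 with a window among the genes 3-fold higher in NIH3T3 alone 1 held it (12.5%). These shares are descriptions of letters in a fixed window, and no match says only that the letters are not in that window.

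**Figure D5:**
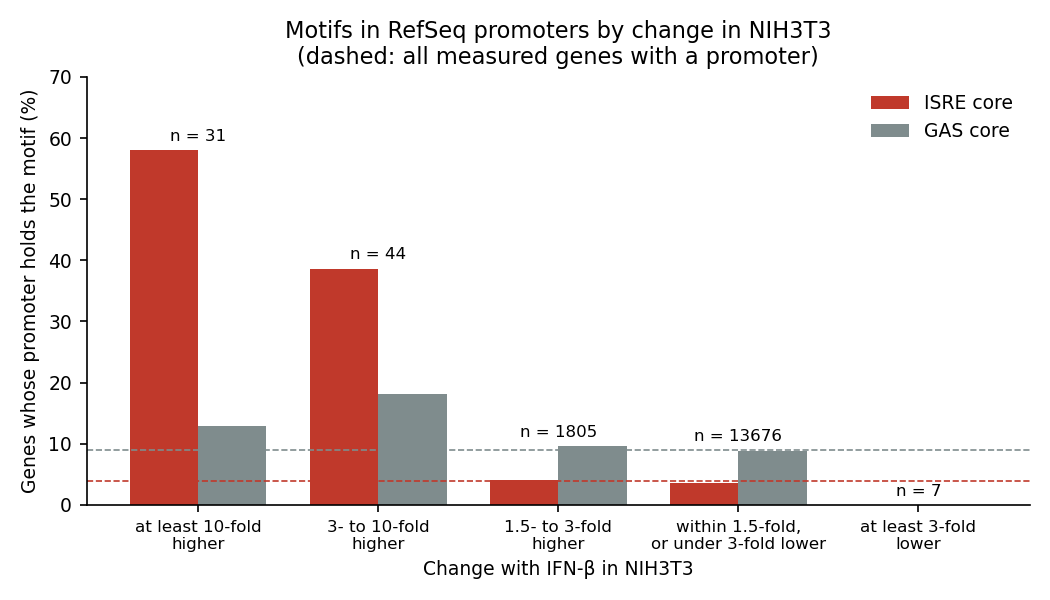
Share of genes (%, y axis) whose RefSeq promoter window holds the ISRE core (red) or the GAS core (grey), by change with IFN-β in NIH3T3 (x axis; n: genes with a window); dashed lines mark the share over all 15563 genes. The ISRE core runs from 58.1% in genes at least 10-fold higher to 3.62% in genes within 1.5-fold or lower by less than 3-fold. Over the same groups, in that order, the GAS core stands at 12.9%, 18.2%, 9.64% and 8.89%.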

How the data were processed

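Total RNA of 6 samples, labelled with a whole-transcript kit per the labels' protocols, was hybridised to 1 Affymetrix array each. The deposited values are log2 levels that the authors made with RMA, per the submitters' processing notes. Neither its version nor its settings are stated in the sources used here, and the log base was read from the range of the values. The annotation names 1 gene for 21789 of 35557 probe sets, several for 1621 and none for 12147. Genes were placed and promoters taken from RefSeq, build GRCm38.p6. All 6 columns were used, with no filter on level.

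Changes within a line are differences of 2 arrays, counted at 3-fold. The comparison of lines used limma 3.58.1 in R 4.3.3, with line as a block, treatment, and NIH3T3 by treatment, and Benjamini-Hochberg adjustment over 19938 genes. It was also run on simulated data, with the same residual spread for all genes and no response in L929 or RAW264.7. The real arrays differ in both, so that run does not show how the test behaves on them. Python 3.11.15 with numpy 2.4.6, pandas 2.3.3, statsmodels 0.14.6 and matplotlib 3.10.9 did the rest. Alternatives were median centring, quantile normalization, loess of the change on the level (span 0.3), the mean over probe sets, all probe sets, a filter on low levels, 2-fold and 5-fold thresholds and, in limma, a trend.

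The members and the 39 lists (729 entries, 610 distinct genes measured) were chosen with earlier results of these data known. The naming rule took the 30 largest increases and 10 largest decreases in NIH3T3, the 3 largest changes of each list (the 4 highest levels for housekeeping, ribosomal and marker lists), the genes past the limma threshold, the 5 highest stimulated levels, the 5 largest increases seen in NIH3T3 alone and the 10 smallest changes among genes 3-fold higher in both other lines. Other genes named were chosen after their values were seen.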

Additional observations from a re-analysis of the deposited data

Results flagged for a closer look

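Ifi209, a HIN-200 gene, was noted because its change in the NIH3T3 pair of arrays differed from that in the other lines in a test of the difference itself. NIH3T3 had 1 pair, so the test cannot separate the line from the variation of a single pair, and both NIH3T3 levels were near the bottom of the array. Its change in NIH3T3 was below the mean of L929 and RAW264.7 by 4.12 on the log2 scale (difference -4.12 ± 0.31, SE, limma adjusted p = 0.0166), with NIH3T3 below both other lines. NIH3T3 went from 2.36 to 2.92, L929 was higher by 4.81 and RAW264.7 by 4.56.

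Probe sets outside the gene table also passed 3-fold in NIH3T3. Of the 1621 probe sets that the annotation gives to several genes, 24 (1.48%) passed it upward and 0 downward, beside 104 (0.477%) upward and 9 (0.0413%) downward of the 21789 with 1 gene. The genes of such a probe set cannot be told apart. The 2 probe sets of Tgtp1 and Tgtp2, GTPases that are T cell-specific by name only, were higher by 6.12 and 5.85. That of Irgm2 and Igtp, immunity-related GTPases, was higher by 5.71, that of Gbp2 and Gbp2b by 4.37 and that of Isg15 and Gm9706 by 3.52. Of the 12147 probe sets with no named gene, 266 (2.19%) passed it upward and 234 (1.93%) downward, with a median change of 0.20. The counts in both directions were thus close, unlike those of the probe sets with 1 gene.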

How the results depend on the processing

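The count of genes at least 3-fold higher in NIH3T3, 95 as deposited, was 75 with each array centred on its median, 87 after quantile normalization, 83 after loess and 94 with the mean over probe sets, with 75, 86, 83 and 94 genes of the 95 among them. It was 345 at 2-fold and 62 at 5-fold. The 8 lower genes became 14 with median centring, 5 with the mean over probe sets, 57 at 2-fold and 2 at 5-fold. Genes with a smaller change than in the other lines, 1 as deposited, became 15 with median centring and 2 with a trend (Ifi209 and Macroh2a2), and the cause was not tested. List genes at least 3-fold higher, 74, became 63, 69 and 68 with median centring, quantile normalization and loess. The share of 46.7% of promoters with an ISRE core was 47.8% for the genes passing after quantile normalization, a setting added after seeing the data. Of the 154 genes chosen by the naming rule, 4 dropped below 3-fold after quantile normalization, 5 after loess, 4 with the mean over probe sets and 6 with median centring, where 2 more decreases, those of Pcmtd1 and Mgmt, passed it. Of all 95 genes, 9 dropped below it after quantile normalization. No replicate could be left out, as each condition had 1 array. The labels carry no replicate numbers, and the arrays of a line were paired by the line, which limma held as a block.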
